A study of Homo sapiens with 9 samples.

Results

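The genes described here are 32 genes of cholesterol and fatty acid synthesis, among 58214 genes with a symbol or identifier in the measured transcriptome. The list follows their known place in the pathway: 7 genes of the mevalonate steps, 11 of the steps from squalene to cholesterol, 5 regulators and sterol carriers, 4 genes of acetyl-CoA supply and fatty acid synthesis, and 5 elongases and desaturases. RNA was sequenced from K562 cells, a human erythroleukaemia line, after transfection with a non-targeting siRNA pool (SCR), siRNA against DHX34 or siRNA against UPF1. Each group held 3 libraries made from poly(A) RNA taken on day 4, and all cells shared the same line, medium and transfection. The titles name the line K562, while the source field spells it K652. UPF1 is a core factor of nonsense-mediated decay (NMD), which removes transcripts with premature stop codons, and the helicase DHX34 takes part in the same pathway. The siRNA lowers its target for a few days and leaves part of the protein's mRNA in place, and although the study calls the libraries biological replicates, the labels do not name separate cultures, so the p-values measure only the spread between these libraries.

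Cells build cholesterol from acetyl-CoA through mevalonate and squalene, and build fatty acids from the same acetyl-CoA through malonyl-CoA. Both routes are controlled by the transcription factors SREBF1 and SREBF2, which wait in the membrane of the endoplasmic reticulum with their escort SCAP and are held there by INSIG1 while sterols are plentiful. When sterols fall, the factors are cut free and switch on the synthesis genes, and INSIG1 itself is one of their targets.

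Members that answer to a shared factor often carry shared letters before their start site, so RefSeq promoters (GRCh38.p14, 250 bases before to 50 after the start) were searched on both strands for 4 motifs. Promoters of 28 members were searched, and those of FDFT1, SQLE, ACAT2 and FASN were not. The background is likewise the 27305 genes whose promoters were searched, and not every gene. These were not limited to expressed genes, while all members were expressed. A gene counted if any of its promoters held the letters, and some members have more than 1 promoter. The NF-Y box CCAAT stood in 22 of the 28 (78.6%), against 39.7% of these 27305 genes. The Sp1 box GGGCGG stood in 26 (92.9%), against 48.3%. The E-box CACGTG stood in 5 (17.9%), against 8.77% of genes. One strict form of the sterol regulatory element, TCACNCCAC, was found in 1 member only, SREBF2 (3.57%), against 1.39% of genes. A match is a run of letters and not a measured site, and a promoter without the letters says nothing about the factor. The 250 bases before the start are printed below for 5 members whose values the results turn on: SREBF2, which holds the sterol element, FADS1 and ELOVL6, which had the largest rises after DHX34 knockdown, and EBP and NSDHL, which had the largest falls after UPF1 knockdown. Capitals mark each match to the 4 motifs that lies wholly within the printed bases, and in NSDHL a pair of NF-Y matches overlap. One more Sp1 match in SREBF2 overlaps the last one marked and runs past the start site. The windows are chr22:41832855-41833104 on the plus strand for SREBF2, chr11:61817004-61817253 on the minus strand for FADS1, chr4:110198616-110198865 on the minus strand for ELOVL6, chrX:48521558-48521807 on the plus strand for EBP and chrX:152830813-152831062 on the plus strand for NSDHL.
SREBF2: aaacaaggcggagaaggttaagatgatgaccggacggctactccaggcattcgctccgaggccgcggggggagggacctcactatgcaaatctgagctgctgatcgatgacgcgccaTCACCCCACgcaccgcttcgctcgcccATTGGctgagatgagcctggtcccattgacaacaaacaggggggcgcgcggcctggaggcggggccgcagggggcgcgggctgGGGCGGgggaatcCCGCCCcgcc
FADS1: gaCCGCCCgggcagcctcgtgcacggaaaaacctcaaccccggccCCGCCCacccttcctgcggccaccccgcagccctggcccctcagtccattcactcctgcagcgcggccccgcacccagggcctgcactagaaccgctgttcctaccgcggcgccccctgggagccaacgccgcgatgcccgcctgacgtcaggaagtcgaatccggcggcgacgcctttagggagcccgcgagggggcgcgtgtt
ELOVL6: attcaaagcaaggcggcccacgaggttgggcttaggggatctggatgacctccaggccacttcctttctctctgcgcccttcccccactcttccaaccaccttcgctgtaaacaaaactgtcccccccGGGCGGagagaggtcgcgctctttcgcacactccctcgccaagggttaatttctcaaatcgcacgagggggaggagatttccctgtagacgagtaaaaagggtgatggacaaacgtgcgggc
EBP: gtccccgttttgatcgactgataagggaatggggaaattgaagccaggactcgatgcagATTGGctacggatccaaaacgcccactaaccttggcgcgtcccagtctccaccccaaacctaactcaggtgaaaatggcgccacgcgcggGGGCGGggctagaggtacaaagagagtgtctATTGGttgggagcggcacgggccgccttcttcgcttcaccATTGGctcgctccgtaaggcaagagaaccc
NSDHL: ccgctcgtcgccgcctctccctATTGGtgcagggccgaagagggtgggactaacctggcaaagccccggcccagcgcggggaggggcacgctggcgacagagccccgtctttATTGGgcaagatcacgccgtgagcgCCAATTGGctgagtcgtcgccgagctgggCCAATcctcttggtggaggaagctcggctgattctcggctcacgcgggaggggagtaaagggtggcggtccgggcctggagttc

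The libraries held between 73478797 and 103625443 expected counts. DHX34 fell to between 30.0 and 34.0 CPM (expected counts scaled to a common library size by the TMM method) in its knockdown, from 72.3 to 74.5 in SCR, and UPF1 fell to between 104.6 and 107.4 CPM in its knockdown, from 251.7 to 266.2. Within the DHX34 group, replicate 3 stood apart from the other 2 libraries, with a median squared difference of 6.92 and 6.88 times that of counting noise, against 3.57 between replicates 1 and 2. The 12 erythroleukaemia markers were all detected. Their summed TPM ran from 20275 to 21571 in SCR, from 19143 to 20902.9 after DHX34 knockdown and from 13015.9 to 13872.7 after UPF1 knockdown. In the UPF1 knockdown 8 of the 12 fell and 1 rose, where 12.9% of all genes were called lower and 12.4% higher. Of 10 megakaryocytic markers GP9 and SELP were at 0 in every library, and the sum, most of it GP1BB, was 129.0 to 138.9 TPM in SCR, 109.5 to 119.3 after DHX34 knockdown and 119.6 to 135.2 after UPF1 knockdown. Of the 5 that could be tested, 3 rose and 1 fell after DHX34 knockdown, where 5.54% of all genes were called higher and 4.86% lower. Of 8 markers of other cell types MS4A1 was at 0 in every library, and their sum, most of it EPCAM, was 90.0 to 93.3 TPM in SCR, 108.8 to 118.4 after DHX34 knockdown and 82.5 to 91.2 after UPF1 knockdown. LYZ, a gene of myeloid cells, was at 14.2 ± 0.392 TPM in SCR, 31.1 ± 1.56 after DHX34 knockdown and 12.3 ± 0.380 after UPF1 knockdown. The part of these shifts in the results on the members was not tested, and in bulk RNA fewer cells with a transcript and less of it per cell cannot be told apart.

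All 32 members were expressed in SCR, over a wide range. Levels between genes are compared here in TPM, which allows for transcript length. EBP, the isomerase of the last steps to cholesterol, was highest at 252.1 to 265.1 TPM. FDFT1, the squalene synthase, and FDPS, which makes farnesyl diphosphate, followed at means of 235.0 and 230.2 TPM with ranges that overlapped each other. Of EBP's TPM 38.2% lay in protein-coding transcripts, against 95.2% for FDFT1 and 77.8% for FDPS. The order is that of all transcripts of a gene together. FASN, the fatty acid synthase, had a mean of 172.6 TPM and ran from 167.8 to 180.0. This was above SCD, the stearoyl-CoA desaturase, at 152.3 to 164.4. Of FASN's TPM 69.8% lay in protein-coding transcripts, and its full-length isoform FASN-201 alone had a mean of 111.0 TPM, below SCD. The lowest were PMVK, the phosphomevalonate kinase, at 14.8 ± 0.232 TPM (SD, n = 3), TM7SF2, a sterol reductase, at 14.7 ± 0.673, and HSD17B7, a sterol ketoreductase, at 12.3 ± 0.379. Of the 31 pairs of neighbours in this order 16 had overlapping ranges. SREBF1 stood at 59.8 ± 5.39 TPM and SREBF2 at 33.6 ± 0.180.

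The comparison of DHX34 knockdown with SCR asks which of these genes respond to loss of the helicase. FADS1, the delta-5 desaturase of polyunsaturated fatty acids, rose most, followed by ELOVL6, the elongase of palmitate, and ACSS2, which makes acetyl-CoA from acetate. These 3 of 32 members (9.38%) were called higher and 0 lower by edgeR's quasi-likelihood test at an adjusted p of at most 0.005, where 10.4% of all 17004 genes tested were called, 5.54% higher and 4.86% lower. The median log2 fold change of the members was 0.04, beside 0.02 for all genes, and the 2 groups did not overlap in 18 of 32 members against 41.5% of all genes. The share called among the members was thus near that of all genes.

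The same question for UPF1, the core NMD factor, gave more calls among the members. Called higher were 8 members (25.0%) and called lower 7 (21.9%), together 46.9%, where 25.3% of 17184 genes were called, 12.4% higher and 12.9% lower. The median log2 fold change was 0.01, beside 0.02 for all genes, and the groups did not overlap in 23 of 32 members against 50.5% of all genes. The largest rise was 0.28 on the log2 scale (ELOVL5) and the largest fall was by 0.37 (EBP), so no member changed by as much as FADS1 did after DHX34 knockdown. Among all genes tested these stood at percentiles 77.9 and 9.9 of the log2 fold change. The shares called were not matched for expression level, and small changes are called more readily in abundant genes. The split of these calls depended on the scale of the values and on how transcript length was treated, as given further on. Both knockdowns were compared with the same 3 SCR libraries.

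**Figure D1:**
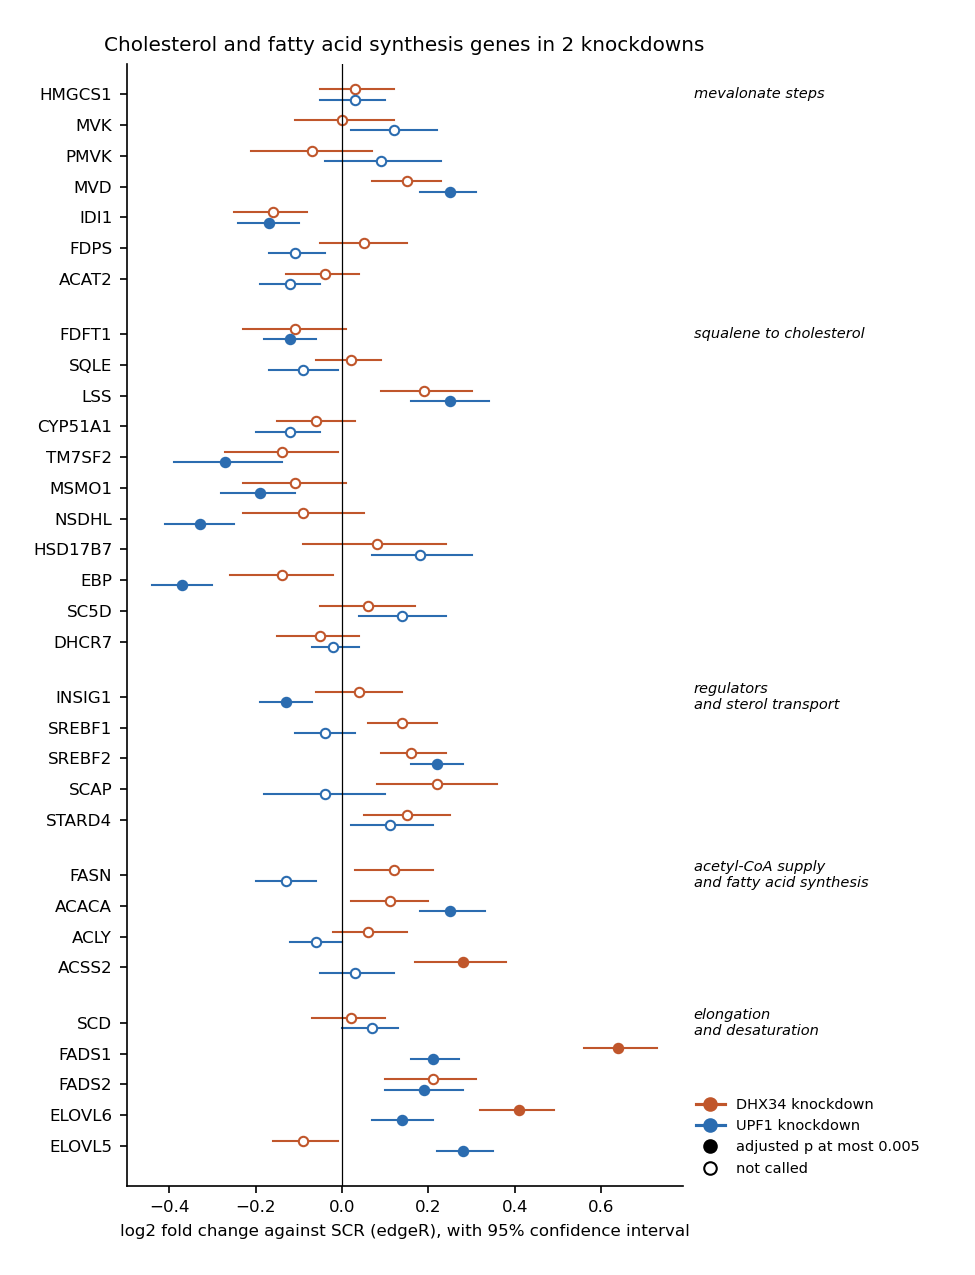
Log2 fold change against SCR with its 95% confidence interval for each of the 32 members, ordered by role, for the DHX34 knockdown (orange) and the UPF1 knockdown (blue). Filled points were called at an adjusted p of at most 0.005: 3 higher after DHX34 knockdown, and 8 higher and 7 lower after UPF1 knockdown.

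Among the 7 genes of the mevalonate steps none was called after DHX34 knockdown. After UPF1 knockdown 1 rose and 1 fell (14.3% each), where 12.4% of all genes were called higher and 12.9% lower. MVD, which makes isopentenyl diphosphate, rose from 108.0 ± 1.85 CPM in SCR to 128.8 ± 1.30 after UPF1 knockdown (log2 fold change 0.25, SE 0.030, edgeR adjusted p 4.47e-05). After DHX34 knockdown it stood at 119.9 ± 2.68 CPM, with an adjusted p of 0.012 by edgeR. IDI1, the isopentenyl diphosphate isomerase, fell from 135.4 ± 3.22 CPM to 121.0 ± 3.03 after UPF1 knockdown, a log2 fold change of -0.17, and was at 121.1 ± 3.63 after DHX34 knockdown, where the log2 fold change of -0.16 was not called (edgeR adjusted p 0.00974). On log2 TPM, where the median of all genes was 0.17, IDI1 was at 0.05 after UPF1 knockdown. HMGCS1, which makes the precursor of mevalonate, had a log2 fold change of 0.03 in both comparisons, with 95% intervals of -0.05 to 0.12 after DHX34 knockdown and -0.05 to 0.10 after UPF1 knockdown. MVK, PMVK, FDPS and ACAT2, the kinases, the farnesyl diphosphate synthase and the cytosolic thiolase, lay between -0.12 and 0.12 in both and were not called. ACAT2 after UPF1 knockdown depended most on the scale, at -0.12 on counts, 0.31 on log2 TPM (limma adjusted p 0.000556) and -0.18 with the length trend removed (limma adjusted p 0.0014). MVK shares its locus with MMAB and ACAT2 with TCP1 and SOD2 on the opposite strand, and the strand of the libraries is not given in the sources used here, so reads of the overlapping stretches cannot be told apart.

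The 11 genes from squalene to cholesterol were not called after DHX34 knockdown, where their log2 fold changes ran from -0.14 to 0.19. After UPF1 knockdown 5 of them fell (45.5%) and 1 rose (9.09%), where 12.9% of all genes were called lower and 12.4% higher. Of the falls, those of TM7SF2, MSMO1 and FDFT1 were less stable, as given below. EBP stood at 191.9, 178.4 and 185.7 CPM in SCR, at 173.2, 176.5 and 154.1 after DHX34 knockdown and at 143.6, 144.6 and 144.3 after UPF1 knockdown. The UPF1 libraries lay below all the others and close together, while DHX34 replicate 3 lay below the other 2 of its group. The fall after UPF1 knockdown was by 0.37 on the log2 scale (SE 0.032, edgeR adjusted p 3.02e-06). EBP was called lower under all 10 alternative settings and in all 6 fits made with a library left out. With protein-coding transcripts only, which held 38.2% of its TPM in SCR, the log2 fold change was -0.29 (edgeR adjusted p 0.00016). After DHX34 knockdown the log2 fold change was -0.14 (adjusted p 0.0754).

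NSDHL, a sterol dehydrogenase that acts before EBP, stood at 64.2, 63.7 and 66.6 CPM in SCR, at 64.4, 63.8 and 54.6 after DHX34 knockdown and at 53.4, 51.5 and 50.9 after UPF1 knockdown. The UPF1 libraries were below all 3 SCR libraries, and of the DHX34 libraries only replicate 3 lay outside the range of SCR. The log2 fold change after UPF1 knockdown was -0.33 (SE 0.036, edgeR adjusted p 1.98e-05), and it was -0.10 with an adjusted p of 0.0589 by limma on log2 TPM. TM7SF2 fell from 18.8 ± 0.861 to 15.6 ± 0.867 CPM, MSMO1, the sterol methyl oxidase, from 79.3 ± 1.70 to 69.7 ± 3.13, and FDFT1 from 351.5 ± 7.86 to 324.6 ± 5.75. TM7SF2 overlaps VPS51, a more abundant gene on the same strand. These 3 calls were less stable: with 1 library left out they were made in 2, 2 and 1 of 6 fits. On log2 TPM, where the median of all genes was 0.17, FDFT1 was at 0.11. LSS, the lanosterol synthase, went the other way, from 124.1 ± 6.42 CPM in SCR to 148.7 ± 3.40 after UPF1 knockdown (log2 fold change 0.25, edgeR adjusted p 0.000316), and was at 142.3 ± 7.11 after DHX34 knockdown. DHCR7, the reductase that yields cholesterol, had a log2 fold change of -0.02 after UPF1 knockdown with a 95% interval of -0.07 to 0.04. SQLE, the squalene epoxidase, CYP51A1, the lanosterol demethylase, SC5D, a sterol desaturase, and HSD17B7 had values from -0.12 to 0.18 after UPF1 knockdown and were not called.

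Of the 5 regulators and sterol carriers none was called after DHX34 knockdown, and all 5 had log2 fold changes above 0, from 0.04 to 0.22. SREBF2, the factor of the cholesterol genes, stood at 174.8, 172.8 and 174.6 CPM in SCR, at 199.2, 191.0 and 194.7 after DHX34 knockdown and at 201.8, 209.2 and 202.0 after UPF1 knockdown. Each of the 6 knockdown libraries was above each SCR library. The rise was called after UPF1 knockdown (log2 fold change 0.22, SE 0.027, edgeR adjusted p 4.32e-05), and lay just outside the threshold after DHX34 knockdown (0.16, SE 0.034, adjusted p 0.00523), where 5 of 10 alternatives called it. With the length trend removed by limma neither was called, at 0.11 after UPF1 knockdown (adjusted p 0.0149) and 0.05 after DHX34 knockdown (adjusted p 0.421).

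SREBF1, the factor of the fatty acid genes, stood at 158.6, 164.1 and 155.5 CPM in SCR, at 172.9, 173.7 and 179.4 after DHX34 knockdown and at 156.5, 158.3 and 153.3 after UPF1 knockdown. The DHX34 libraries lay above SCR, and the UPF1 libraries overlapped it. Neither difference from SCR was called (log2 fold changes 0.14 and -0.04, edgeR adjusted p 0.0187 and 0.37). INSIG1 stood at 311.6, 310.1 and 321.5 CPM in SCR, at 337.4, 332.6 and 301.2 after DHX34 knockdown and at 279.2, 293.3 and 292.8 after UPF1 knockdown. The UPF1 libraries were below SCR, and the DHX34 libraries lay on both sides of it, with replicate 3 the lowest. INSIG1 was called lower after UPF1 knockdown (log2 fold change -0.13, SE 0.028, edgeR adjusted p 0.00248), but in only 1 of 6 fits with a library left out. SCAP ranged from 99.8 to 123.7 CPM within SCR alone and was not called in either comparison. STARD4, a carrier of cholesterol between membranes, was at 40.6 ± 1.73 CPM in SCR, 45.2 ± 0.860 after DHX34 knockdown and 44.2 ± 1.67 after UPF1 knockdown, and was not called.

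**Figure D2:**
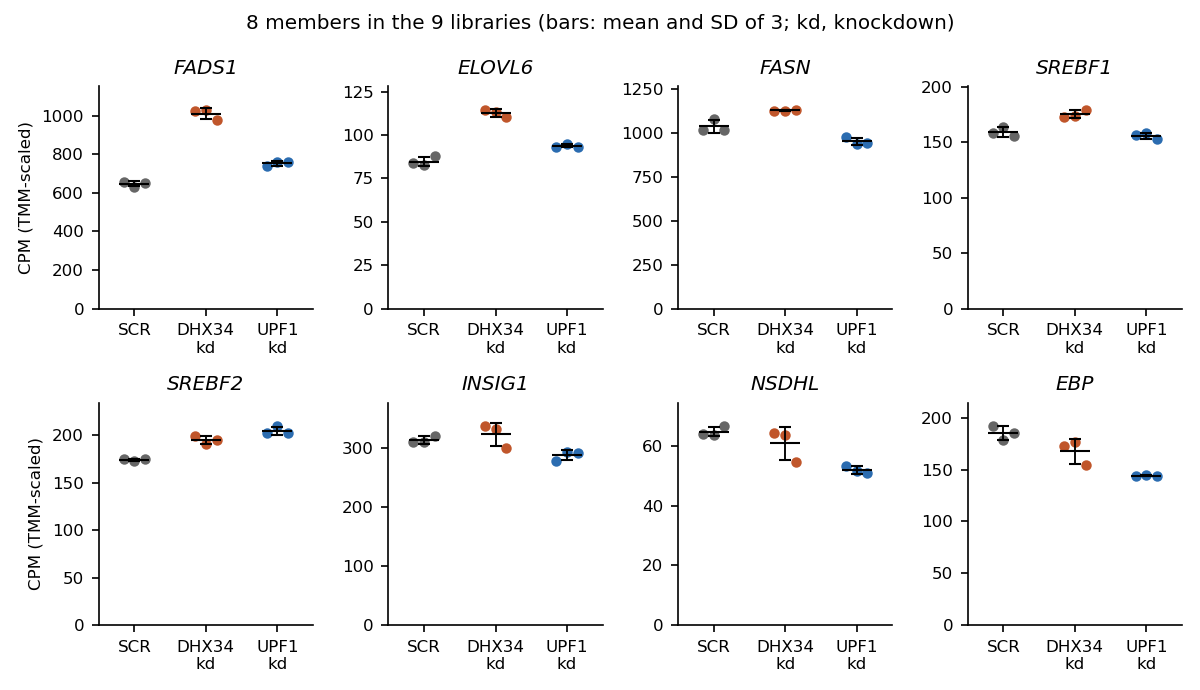
CPM, scaled by TMM, of 8 members in each of the 9 libraries, with the mean and SD of each group of 3 as bars. FADS1 and ELOVL6 were highest in the DHX34 knockdown, EBP and NSDHL lowest in the UPF1 knockdown, and DHX34 replicate 3 was the lowest of its group for INSIG1, NSDHL and EBP.

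FASN, the most abundant member in CPM, lay on opposite sides of SCR in the knockdowns, with neither difference called. It stood at 1014.2, 1075.7 and 1014.3 CPM in SCR, at 1124.4, 1124.5 and 1128.8 after DHX34 knockdown and at 973.5, 933.9 and 942.9 after UPF1 knockdown. The 3 groups did not overlap. Against SCR the log2 fold changes of 0.12 (SE 0.039, edgeR adjusted p 0.0447) and -0.13 (SE 0.031, edgeR adjusted p 0.0053) both missed the threshold. The value after DHX34 knockdown turned to -0.16 with length-scaled counts and to -0.03 with the length trend removed. The value after UPF1 knockdown was called lower under 5 of 10 alternatives, among them length-scaled counts (-0.32, edgeR adjusted p 0.000116) and the length trend removed (-0.28, limma adjusted p 1.3e-05). ACSS2 rose after DHX34 knockdown, from 63.5 ± 0.939 to 77.2 ± 4.30 CPM (log2 fold change 0.28, SE 0.048, edgeR adjusted p 0.00176), though in only 1 of 6 fits with a library left out, and stood at 65.4 ± 2.63 after UPF1 knockdown. ACACA, the carboxylase that makes malonyl-CoA, rose after UPF1 knockdown, from 196.3 ± 7.94 to 235.4 ± 6.43 CPM (log2 fold change 0.25, SE 0.034, edgeR adjusted p 8.61e-05), and was at 212.2 ± 6.25 after DHX34 knockdown. With length-scaled counts the UPF1 value was 0.02 (edgeR adjusted p 0.774) and with the length trend removed 0.10 (limma adjusted p 0.0257), so the call depended on how length was treated. ACLY, which cuts citrate into acetyl-CoA, was at 478.6 ± 11.8 CPM in SCR, 501.0 ± 16.8 after DHX34 knockdown and 462.6 ± 10.8 after UPF1 knockdown, and was not called.

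The elongases and desaturases held the largest rises. FADS1 stood at 657.1, 631.7 and 650.3 CPM in SCR, at 1026.1, 1031.0 and 977.8 after DHX34 knockdown and at 738.9, 762.2 and 758.5 after UPF1 knockdown. The 3 groups did not overlap, with the UPF1 libraries between the others. The log2 fold change was 0.64 after DHX34 knockdown (SE 0.040, 1.56-fold, edgeR adjusted p 3.34e-06) and 0.21 after UPF1 knockdown (SE 0.026, 1.16-fold, edgeR adjusted p 3.97e-05). The first was called under all 10 alternatives and in all 6 fits with a library left out. The log2 fold change of FADS1 after DHX34 knockdown was higher than that of 94.1% of the genes tested. FADS1 lies on chromosome 11 from 61799627 to 61829318 on the minus strand and overlaps FADS2, the delta-6 desaturase, on the opposite strand. FADS2 was far lower, at 43.6 ± 2.02 CPM in SCR, 50.4 ± 1.58 after DHX34 knockdown and between 49.6 and 50.5 after UPF1 knockdown. Its log2 fold change was called after UPF1 knockdown (0.19, edgeR adjusted p 0.00237) and not after DHX34 knockdown (0.21, edgeR adjusted p 0.00923), and the difference between the knockdowns was not called (0.00, 95% interval -0.08 to 0.08). The call after UPF1 knockdown was made in only 1 of 6 fits with a library left out. FADS2 also overlaps FEN1, a more abundant gene on the same strand, at a mean of 101.9 TPM beside 20.3 for FADS2.

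ELOVL6 stood at 83.9, 82.6 and 87.8 CPM in SCR, at 114.6, 113.2 and 110.3 after DHX34 knockdown and at 93.4, 95.1 and 93.4 after UPF1 knockdown. As for FADS1, the groups did not overlap and the UPF1 libraries lay between. The rise after DHX34 knockdown was 0.41 on the log2 scale (SE 0.038, edgeR adjusted p 4.38e-05). It was 0.33 with length-scaled counts and 0.49 by limma on log2 TPM, where it missed the threshold with adjusted p values of 0.0684 and 0.018. The rise after UPF1 knockdown was 0.14 (SE 0.032, edgeR adjusted p 0.00386), and was called in only 1 of 6 fits with a library left out. ELOVL5, an elongase of polyunsaturated fatty acids, rose after UPF1 knockdown, from 217.9 ± 4.88 to 266.9 ± 6.44 CPM (log2 fold change 0.28, SE 0.028, edgeR adjusted p 8.94e-06), and was at 205.1 ± 3.25 after DHX34 knockdown (log2 fold change -0.09, edgeR adjusted p 0.0785). SCD, at 825.1 ± 27.5 CPM in SCR, had log2 fold changes of 0.02 and 0.07 with 95% intervals of -0.07 to 0.10 and 0.00 to 0.13.

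The knockdowns were then compared with each other, without the SCR libraries, to test which members responded differently to loss of UPF1 than to loss of DHX34. Lower in the UPF1 than in the DHX34 libraries were FADS1 (log2 difference -0.41, SE 0.033, edgeR adjusted p 4.43e-06), ELOVL6 (-0.25), SCAP (-0.24), FASN (-0.23), ACSS2 (-0.23) and SREBF1 (-0.16). Higher were ELOVL5 (0.39, SE 0.030, edgeR adjusted p 3.98e-06) and ACACA (0.16). Together 8 of 32 members (25.0%) were called, where 17.4% of 17435 genes were called, 9.89% higher and 7.47% lower. The calls of FADS1 and ELOVL5 held under all 10 alternatives and in all 6 fits with a library left out. The library DHX34 replicate 3 weighed on this comparison: without it 13 members were called, 2 higher and 11 lower. Among them EBP (-0.28), NSDHL (-0.30) and INSIG1 (-0.22) were added. Of all genes 21.3% were then called, 10.7% higher and 10.5% lower. None of the 7 mevalonate genes or the 11 genes from squalene to cholesterol was called with all 6 libraries (edgeR).

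The split of the members changed with the scale of the values and with the way transcript length enters them. Log2 fold changes rose with the transcript length of genes in both knockdowns, with a Spearman correlation of 0.218 over 17004 genes for DHX34 and 0.172 over 17184 genes for UPF1, and none in the direct comparison (0.00). Genes share libraries and depth and are not replicates, so these are descriptions. Among the 32 members the correlations were 0.59 and 0.358, and after UPF1 knockdown the members called higher had a median length of 4081 bases and those called lower 1852. On counts the UPF1 knockdown gave 8 members higher and 7 lower. Limma on log2 TPM gave 16 higher and 1 lower, where 18.7% of all genes were called higher and 1.64% lower. The TPM values were not scaled by TMM, and the median of all genes on this scale was 0.17. Limma on log2 CPM with a trend of length removed in each library gave 3 higher and 12 lower, against 8.57% and 18.5% of all genes. Length-scaled counts, made from the TPM but scaled by TMM, gave 4 and 5, against 7.73% and 8.29%. The members' split thus swung with that of all genes. With the trend removed the UPF1 calls of SREBF2, ACACA, FADS1 (0.12, limma adjusted p 0.015), FADS2 (0.13, limma adjusted p 0.0314) and ELOVL6 (0.05, limma adjusted p 0.304) were lost. For DHX34 knockdown the same settings gave 7 higher and 0 lower on log2 TPM. The median of all genes was there 0.13, and 4.62% of them were called higher and 0.547% lower. With the trend removed it was 2 and 1, against 3.41% and 6.32% of all genes. With length-scaled counts it was 1 and 0, against 2.33% and 2.01%. DESeq2 gave 8 higher and 1 lower for DHX34 knockdown, against 9.35% and 10.6% of all genes. For UPF1 knockdown it gave 8 and 11, against 14.1% and 16.4%. With protein-coding transcripts only the UPF1 split was 8 and 5, against 13.5% and 14.3% of all genes. With all libraries in 1 fit it was 8 and 4, against 11.3% and 11.4%. In the direct comparison, 2 higher and 6 lower as reported, DESeq2 size factors (RLE) or removal of the length trend gave 1 and 7. Of all genes 9.26% were called higher and 8.12% lower with RLE, and 8.54% and 8.19% with the trend removed. MVD and ELOVL5 were called higher and EBP lower after UPF1 knockdown under all 10 alternatives.

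**Figure D3:**
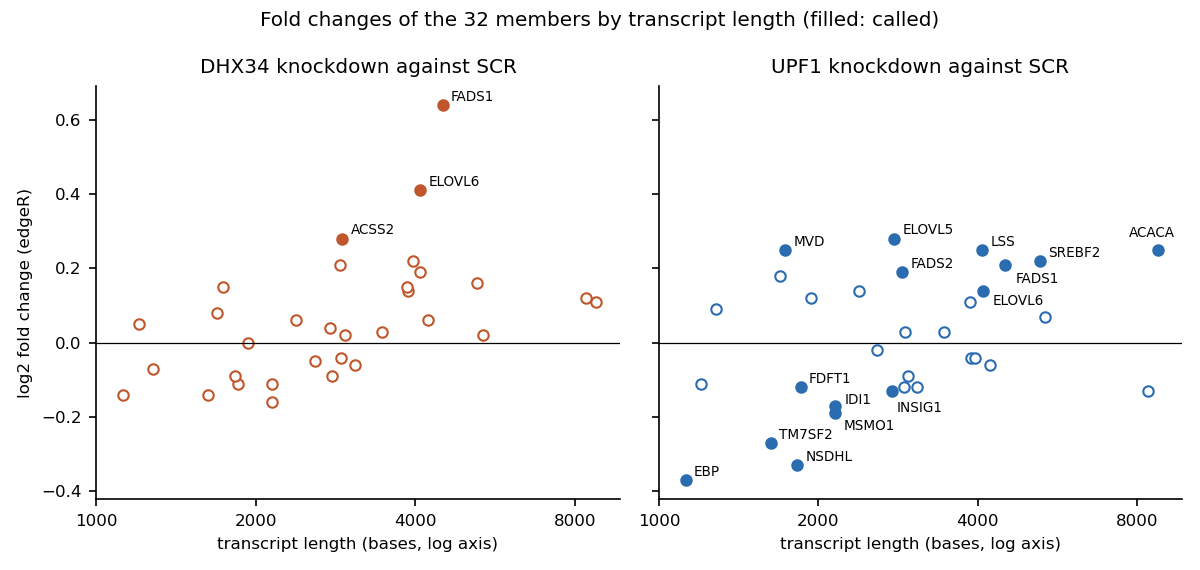
Log2 fold change of each of the 32 members against SCR (vertical axis) by transcript length in bases (log axis), for the DHX34 knockdown on the left and the UPF1 knockdown on the right, with called members filled and named. After UPF1 knockdown the members called lower were mostly short, with a median length of 1852 bases against 4081 for those called higher.

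**Figure D4:**
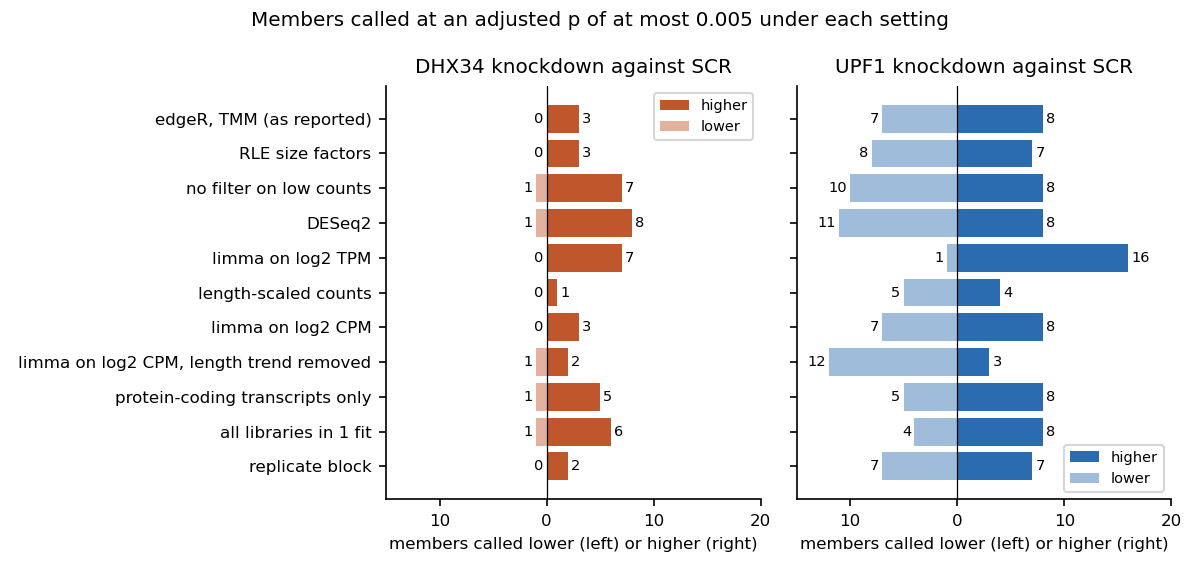
Number of members called lower (left of 0) and higher (right of 0) at an adjusted p of at most 0.005 under the reported setting and 10 others. After UPF1 knockdown the split ran from 16 higher and 1 lower on log2 TPM to 3 higher and 12 lower with the length trend removed.

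Isoforms were examined next, since NMD acts on single transcripts of a gene. Of 30 members with at least 2 tested transcripts, 4 (13.3%) had changed transcript usage after DHX34 knockdown by edgeR's diffSpliceDGE at an adjusted p of at most 0.05, against 3.55% of 10531 genes. After UPF1 knockdown it was 3 (10.0%), against 6.28% of 10638 genes. FASN, ACACA and ACLY were called in both comparisons, and also by limma's diffSplice. SREBF1 was called after DHX34 knockdown by edgeR alone (adjusted p 0.000158 against 0.91 by limma). The salmon program assigns reads to isoforms by likelihood, and the part of that assignment in these shifts was not tested. Some of the usage calls may be false. Shares below are of a gene's TPM, and with 3 libraries against 3 the exact two-sided permutation test cannot give a p below 0.1.

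In FASN the full-length coding isoform FASN-201 took 62.9%, 65.7% and 64.2% of the TPM in SCR, 79.4%, 78.6% and 76.4% after DHX34 knockdown and 72.5%, 74.1% and 74.5% after UPF1 knockdown. Every knockdown library was above every SCR library. The differences were 13.9 and 9.48 percentage points, each with an exact permutation p of 0.1, the smallest possible. What fell was FASN-202, a short transcript of 951 bases annotated with a retained intron, at 23.9%, 15.6% and 21.5% in SCR, 9.13%, 6.91% and 7.10% after DHX34 knockdown and 13.2%, 8.97% and 7.86% after UPF1 knockdown. FASN-204, of 681 bases and annotated as an NMD substrate, was at 10.1, 13.8 and 6.30 TPM in SCR and between 0 and 1.97 TPM in the 6 knockdown libraries.

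Both short transcripts lie within the last part of the gene, from 82079007 to 82080742 on chromosome 17, and share sequence with FASN-201. They carried few reads: FASN-202 held 1453 to 2373 expected counts in SCR beside 68283 to 84642 for FASN-201. By share of expected counts FASN-201 therefore rose only from 96.3% to 98.3% and 98.0%, by 2.05 and 1.74 points. Among protein-coding transcripts alone its share went the other way, by -2.50 points after DHX34 knockdown and -2.36 after UPF1 knockdown, as FASN-207, a coding fragment of 627 bases, took a larger part.

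ACACA-231, the coding isoform of 9554 bases, took 34.5%, 41.8% and 34.3% of the gene's TPM in SCR, 49.6%, 54.2% and 54.5% after DHX34 knockdown and 50.5%, 55.8% and 52.9% after UPF1 knockdown. ACACA-245, a coding isoform of 5315 bases with 23 exons in place of 56, went from 23.0%, 19.4% and 22.3% in SCR to 6.58%, 4.64% and 3.97% after DHX34 knockdown and 11.5%, 4.32% and 4.92% after UPF1 knockdown. The groups did not overlap with SCR for either isoform. Unlike in FASN, both isoforms held many reads, with 2762 to 4312 expected counts for ACACA-245 and 9101 to 12129 for ACACA-231 in SCR, and it was called in all 6 fits with a library left out in both comparisons. ACACA-232, a coding fragment of 569 bases, had mean shares of 22.3%, 19.9% and 15.4% in SCR and after DHX34 and UPF1 knockdown.

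In ACLY the shift ran between isoforms of similar size. ACLY-203, of 3682 bases, rose from 11.8%, 11.6% and 9.23% of the TPM in SCR to 19.4%, 19.5% and 19.4% after DHX34 knockdown and 19.0%, 16.6% and 20.3% after UPF1 knockdown. ACLY-207 went from 15.8%, 16.1% and 20.1% to 7.72%, 8.96% and 8.06% and to 8.41%, 9.22% and 6.44%. ACLY-202 went from a mean of 14.7% to 6.12% and 9.76%, and ACLY-201, the main isoform, from 55.3% to 63.1% and 61.0%. None of these 4 isoforms overlapped between SCR and a knockdown, and all 4 are annotated as protein-coding. In SREBF1 the main isoform SREBF1-201 stood at 52.4% ± 2.88 in SCR, 50.6% ± 4.44 after DHX34 knockdown and 51.9% ± 1.58 after UPF1 knockdown, with overlapping groups. SREBF1-218, a short transcript annotated as an NMD substrate, was at 12.1% ± 0.846, 9.77% ± 0.356 and 10.2% ± 0.766, with both knockdowns below SCR.

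**Figure D5:**
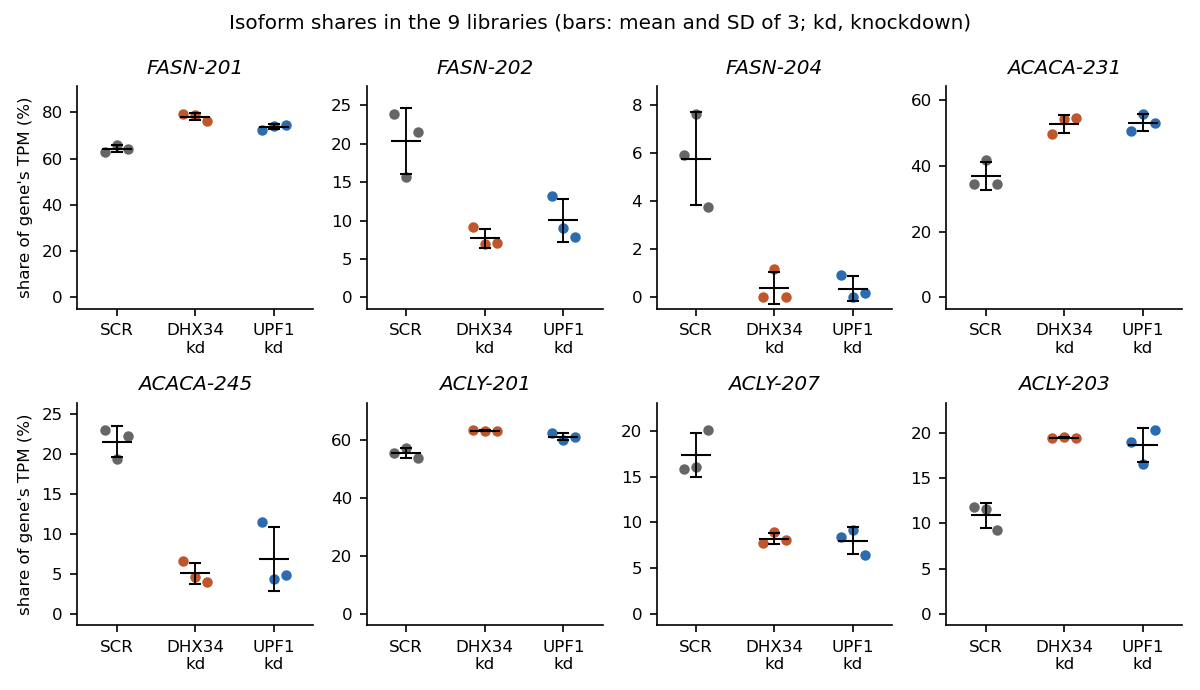
Share of the gene's TPM, in percent, of 8 isoforms of FASN, ACACA and ACLY in each of the 9 libraries, with the mean and SD of each group of 3 as bars. FASN-201, ACACA-231, ACLY-201 and ACLY-203 were higher in all 6 knockdown libraries than in SCR, and the other 4 isoforms lower.

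Over all members with annotated NMD transcripts, the share of the gene's TPM in those transcripts was higher in all 3 libraries than in SCR for 3 of 15 members after DHX34 knockdown (ACACA, ELOVL6 and STARD4), against 8.28% of 3876 genes. After UPF1 knockdown it was higher for 7 of 15 (ACACA, ACSS2, ELOVL6, FDFT1, FDPS, HSD17B7 and STARD4), against 34.7%. HSD17B7 held 0.0% in SCR, 0.396% after DHX34 knockdown and 2.58% after UPF1 knockdown. It passed the filter on these transcripts only through the knockdown libraries, so its rise is no support. The genes of the background passed the same filter. It was lower in 3 after DHX34 knockdown (FASN, SCAP and SREBF1) and in 2 after UPF1 knockdown (FASN and SCAP), against 7.38% and 3.28%. For retained-intron transcripts, 0 of 21 members were higher and 3 lower after DHX34 knockdown (FASN, INSIG1 and SCAP), against 9.80% and 4.86% of 5345 genes. After UPF1 knockdown 4 were higher (FDPS, HMGCS1, SREBF2 and TM7SF2) and 3 lower (FASN, IDI1 and SCAP), against 15.3% and 7.22%.

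A further list of 40 genes of lipid metabolism was set beside the members, of which all were tested. By edgeR 6 rose and 1 fell after DHX34 knockdown. The largest rises were in ERLIN2 (log2 fold change 0.80), whose protein takes part in sterol-driven degradation at the endoplasmic reticulum, FADS3 (0.53), a relative of FADS1, LPIN1 (0.34), a phosphatidate phosphatase, and ACSL4 (0.32), which activates polyunsaturated fatty acids. GGPS1, which makes geranylgeranyl diphosphate, fell (-0.25). After UPF1 knockdown 10 rose and 4 fell. The largest rises were in ACACB (1.28), the mitochondrial relative of ACACA, ERLIN2 (0.74), LPIN1 (0.71) and HACD3 (0.48), a dehydratase of the elongation cycle. ELOVL1 (-0.32), an elongase of very long chains, NR1H2 (-0.29), an oxysterol receptor, RNF139 (-0.25), a sterol-responsive ubiquitin ligase, and TECR (-0.20), the reductase of the elongation cycle, fell. The share called was 17.5% after DHX34 knockdown, against 10.4% of all genes, and 35.0% after UPF1 knockdown, against 25.3%, and the median log2 fold changes were 0.04 and 0.00.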

How the data were processed

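Sequencing of poly(A) RNA covered 9 libraries of K562 cells, 3 each for SCR, DHX34 and UPF1 siRNA, grouped by their titles. The authors quantified reads with salmon against Ensembl transcripts on GRCh38 with a correction for GC content, and the deposited tables hold an expected count (a likelihood estimate that need not be whole) and a TPM (abundance scaled for transcript length) for each of 203027 transcripts. Per the labels sleuth was also used. The authors' own comparison tables (p-values, q-values and effects from sleuth, and dPSI, p-values and TPM from SUPPA2) were not used.

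Transcripts were joined by identifier to GENCODE 44, later than the authors' annotation, which matched 97.9% of them and 98.08% to 98.12% of the counts, and 85.8% had the same length in both. Expected counts were summed per gene, rounded and tested with edgeR 4.0.16 in R 4.3.3 (quasi-likelihood, TMM). Each comparison used its own 6 libraries and the filterByExpr filter, set to a count of 10, with Benjamini-Hochberg adjustment over all genes. All 32 members passed the filter in every comparison, and the shares given for all genes are not matched to the members in expression level. A gene was called at an adjusted p of at most 0.005, and transcript usage (diffSpliceDGE, Simes) at 0.05. Transcript length is the mean over a gene's transcripts weighted by counts. CPM values use TMM sizes, and log2 TPM a pseudocount of 0.5. Isoforms named hold at least 10% of the gene's TPM in a group, or are short transcripts of FASN that moved, which were chosen after their values were seen. Class shares needed 1 TPM for the gene and 0.1 TPM for its transcripts of that class, on average. Alternatives used DESeq2 1.42.0 and limma 3.58.1. Tests of single values were exact permutation tests. The scripts were tested on simulated data, where diffSpliceDGE made more false calls than its threshold allows.

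The members and lists, like the tests, were chosen with earlier results of these data known. Library values are given for members called against SCR with an absolute log2 fold change of at least 0.3, and for FASN, SREBF1, SREBF2 and INSIG1; other members are given by means, ranges or counts, and of the other lipid genes up to 4 in each direction are named.

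Replicate numbers are shared between groups, but nothing in the labels ties them to a shared day or culture. Deviations from the group means of libraries with the same number correlated between -0.088 and 0.076, so the numbers were not taken as pairs.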

Additional observations from a re-analysis of the deposited data

Results flagged for a closer look

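For 8 members the effects of the 2 knockdowns differed by a direct test between the UPF1 and the DHX34 libraries (edgeR, adjusted p at most 0.005). The effect in the UPF1 knockdown minus that in the DHX34 knockdown, on the log2 scale, was -0.41 for FADS1 (adjusted p 4.43e-06), -0.25 for ELOVL6 (0.00011), -0.24 for SCAP (0.0013), -0.23 for FASN (0.000226), -0.23 for ACSS2 (0.00314) and -0.16 for SREBF1 (0.00275). It was 0.39 for ELOVL5 (3.98e-06) and 0.16 for ACACA (0.00414). For FASN, ELOVL5, SCAP and SREBF1 the point estimates against SCR had opposite signs in the knockdowns. The differences of FADS1 and ELOVL5 were called under all 10 alternatives, those of FASN and ELOVL6 under 8, that of SREBF1 under 7, those of SCAP and ACSS2 under 6 and that of ACACA under 4. With 1 library left out, the differences of SREBF1, ACACA and ACSS2 were called in 1 of 6 fits and that of SCAP in 3.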

How the results depend on the processing

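The count of members called after DHX34 knockdown, 3 as reported, was 8 with no filter on low counts, 9 by DESeq2, 7 by limma on log2 TPM, 1 with length-scaled counts, 6 with protein-coding transcripts only, 7 with all libraries in 1 fit and 12 at an adjusted p of at most 0.05, where 25.9% of all genes were called. It ran from 2 to 5 with a library left out (4.48% to 10.3% of all genes), the 5 and the 10.3% without DHX34 knockdown replicate 3. After UPF1 knockdown, 15 as reported (25.3% of all genes), it was 9 with length-scaled counts. Of all genes 7.73% were then called higher and 8.29% lower. With a library left out it ran from 8 to 13 (18.1% to 20.9% of all genes). It was 8 (18.1%) without UPF1 knockdown replicate 1 and 9 (18.4%) without replicate 2. Between the knockdowns, 8 as reported (17.4% of all genes), it was 3 by limma on log2 TPM (8.26%) and 2 with length-scaled counts (9.56%). At an adjusted p of at most 0.05 it was 16 (32.6%). It ran from 4 to 13 with a library left out. It was 4 or 5 (10.8% to 12.1% of all genes) without any 1 library except DHX34 knockdown replicate 3, where it was 13 (21.3%). Members with changed transcript usage after UPF1 knockdown, 3 as reported, were 8 by limma's diffSplice and 2 to 5 with a library left out (5 without SCR replicate 1). After DHX34 knockdown, 4 as reported, they were 4 to 5 with a library left out. Limma's diffSplice there added LSS, DHCR7 and CYP51A1 (adjusted p 0.0154, 0.0366 and 0.0453) and did not call SREBF1. The rise of FASN-201's share ran from 13.2 to 14.7 points after DHX34 knockdown and from 8.80 to 10.2 after UPF1 knockdown with a library left out, and turned to -2.50 and -2.36 among protein-coding transcripts only, where the short noncoding transcripts are not in the total. Under at least 1 of the 10 alternatives the log2 fold change took the other sign in 18 of 32 members after DHX34 knockdown, none of them called, in 15 after UPF1 knockdown, of which IDI1, FDFT1, INSIG1 and ELOVL6 were called, and in 5 between the knockdowns, none called. Among the 8 members given by library, those after DHX34 knockdown were FASN (-0.16 with length-scaled counts, -0.03 with the length trend removed), INSIG1 (-0.02 with the length trend removed), and NSDHL and EBP (0.07 and 0.02 on log2 TPM). After UPF1 knockdown they were INSIG1 and SREBF1 on log2 TPM (0.07 and 0.18) and ELOVL6 with length-scaled counts (-0.0046). On log2 TPM the median of all genes was 0.13 after DHX34 knockdown and 0.17 after UPF1 knockdown. The cause of these changes of sign was not tested. With the replicate number as a block, the counts of members called were 2, 14 and 5, where 5.92%, 25.3% and 13.3% of all genes were called. The members with changed usage were 4 after either knockdown, and the shares of FASN-201 rose by 13.9 and 9.48 points. The numbers did not pair the libraries. Depth limits single isoforms more than genes: the short transcripts of FASN rest on far fewer counts than the gene, 254 to 436 for FASN-204 in SCR.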
